A study of Mus musculus with 5 samples.

Results

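The interleukin-1 family of cytokines and receptors, with interleukin-6, was followed through single-cell RNA sequencing of mouse lung in 5 libraries. The 9 genes were found by their exact symbols among 42454 features: the ligands Il1a, Il1b, Il18 and Il33, the receptor antagonist Il1rn, the receptors Il1r1, Il1r2 and Il1rl1, and Il6. All 9 had counts in the 4 unsorted libraries. Newborn C57BL/6J mice, under 12 h old, had been kept in room air or in more than 95% O2 for 3 days and then in room air. The libraries held lung cells of air-exposed mice at postnatal day (pnd) 7, of hyperoxia-exposed mice at pnd7, of hyperoxia-exposed mice at pnd7 after sorting for C12FDG, and of air-exposed and hyperoxia-exposed mice at pnd60. C12FDG is a substrate that becomes fluorescent when cleaved by β-galactosidase, and the label of the sorted library calls its cells senescent. The sorted cells came from a pool of 3 lungs, and the number of mice behind the other libraries is not given in the sources used here. Each condition had 1 library, so that no test between conditions was possible. Every interval below is a 95% counting interval that leaves out differences between mice and between cells. Reads from fewer cells of a type and from less RNA per cell cannot be told apart in a level of a whole library.

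IL-1α and IL-1β are the activating ligands of the receptor encoded by Il1r1. Il1rn encodes a ligand that occupies the same receptor without activating it, and Il1r2 encodes a decoy receptor that binds IL-1 without passing on a signal. IL-1β and IL-18 are made as precursors that caspase-1 cuts after an inflammasome has assembled, whereas IL-1α and IL-33 are known as nuclear cytokines released from damaged cells. Il1rl1 encodes ST2, the receptor of IL-33, which is well known on mast cells, group 2 innate lymphoid cells and regulatory T cells. IL-6 is a cytokine of the acute phase response and acts through a receptor complex containing gp130. The receptor genes lie close together on chromosome 1, with Il1r2 at chr1:40084692-40125230, Il1r1 at chr1:40222480-40316201 and Il1rl1 at chr1:40404864-40465418. Il1a lies at chr2:129299609-129310186, Il1b at chr2:129364569-129371164 and Il1rn at chr2:24336860-24351491. Il6 lies at chr5:30013114-30019975, Il18 at chr9:50554700-50581841 and Il33 at chr19:29925113-29960718, all in GRCm38.p6.

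After the filter on genes per cell, 2308 cells remained in the air library at pnd7, 1246 in the hyperoxia library at pnd7, 493 in the C12FDG-sorted library, 4397 in the air library at pnd60 and 4756 in the hyperoxia library at pnd60. They held between 7880365 and 16648251 counts of unique molecular identifiers (UMIs) per library. The median count per cell ran from 2168 in air at pnd60 to 15529 in the sorted cells. No pair of libraries shared more than 4 cell barcodes. Cells fell into 64 clusters, of which 56 could be named from markers, giving 23 cell classes. A class is called by its markers with the ending "-like", and none of the 9 genes was among the markers. The 9 genes were also kept out of the variable genes used for clustering. Leading genes of a cluster were ranked afterwards over all genes. Il1rn and Il18 were among the 10 leading genes of the cluster with most of the unsorted alveolar macrophage-like cells at pnd7. Levels by class are a description. In the sorted library 410 of 493 cells (83.2%) were alveolar macrophage-like and 50 were C1q macrophage-like, against 64 and 19 of 1246 cells in the unsorted hyperoxia library at pnd7. All 12 alveolar macrophage markers were detected in every library, while 4 of 12 mast cell or basophil markers and 8 of 12 neutrophil markers were detected in the sorted one. Erythroid or platelet-like cells made up 29.2% of the cells in air at pnd7 and 9.71% in hyperoxia at pnd7. This class differed in content between the 2 libraries. By the marker list with the largest share in each cell, 623 of 674 in air and 34 of 121 in hyperoxia were erythroid cells or platelets.

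Levels are given in CPM, the counts of a gene scaled to a common total over the same cells (counts per 1e6), and a gene was called different at a log2 ratio of at least 1 in size with at least 50 counts in the 2 libraries together. Il1a was at 3.3 CPM in air and 4.42 CPM in hyperoxia at pnd7, 118 CPM after sorting, and 5.15 CPM in air and 5.62 CPM in hyperoxia at pnd60. The sorted library stood far above the other libraries, among which neighbours in the order of levels had overlapping intervals. Il1b was at 22.5 and 30.9 CPM in air and hyperoxia at pnd7, 74.1 CPM after sorting, and 66.9 and 111 CPM in air and hyperoxia at pnd60. The order of Il1b levels was thus air at pnd7, hyperoxia at pnd7, air at pnd60, sorted, and hyperoxia at pnd60, with overlapping intervals between air at pnd60 (62.8 to 71.3 CPM) and the sorted cells (68.2 to 80.4 CPM). Il1rn was at 30.9 and 31.5 CPM at pnd7 in air and hyperoxia, at 201 CPM after sorting and at 27.1 and 32.2 CPM at pnd60. Il18 was at 45.4 and 36 CPM at pnd7, at 261 CPM after sorting and at 50.6 and 50 CPM at pnd60. Il1rn and Il18 were therefore highest in the sorted cells and lay within a narrow range in the unsorted libraries. Il33 was at 57.3 and 72.7 CPM at pnd7, at 3.68 CPM after sorting and at 101 and 103 CPM at pnd60. Il1r1 was at 17.7 and 17.5 CPM at pnd7, 1.78 CPM after sorting, and 22.5 and 25.5 CPM at pnd60. Il1rl1 was at 6.67 and 8.32 CPM at pnd7 and 14.5 and 11.1 CPM at pnd60, and had 0 counts in the sorted cells, where 3 counts would be 0.381 CPM. Il33, Il1r1 and Il1rl1 were thus lowest in the sorted cells. Il1r2 stayed low throughout, at 0.781 and 1.55 CPM at pnd7, 1.4 CPM after sorting and 2.85 and 5.75 CPM at pnd60. Il6 was low in every library, at 4.99 and 3.68 CPM at pnd7, 4.95 CPM after sorting and 3.39 and 3.02 CPM at pnd60.

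**Figure D1:**
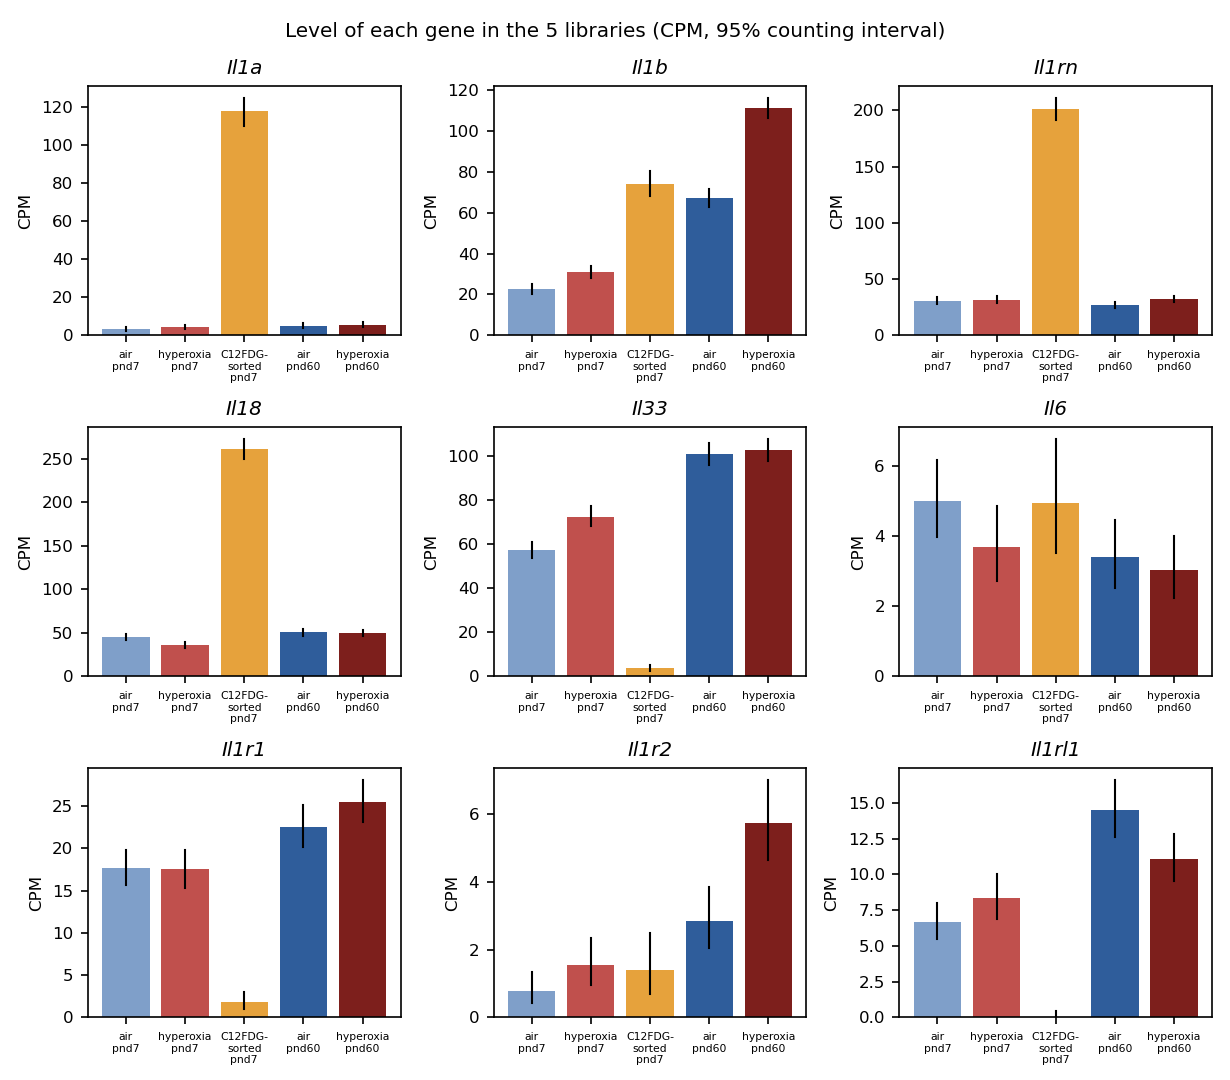
Level of each of the 9 genes in the 5 libraries, in CPM, each panel with its own axis from 0. Bars are the value of 1 library and lines its 95% counting interval. Il1a, Il1rn and Il18 peak in the C12FDG-sorted cells at 118, 201 and 261 CPM, where Il33 is at 3.68 CPM and Il1rl1 at 0.

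The cell class that held each transcript was asked next. Each of Il1a, Il1rn and Il18 had most of its counts in alveolar macrophage-like cells in every library. For Il1rn this share was 81.6% in air and 88.1% in hyperoxia at pnd7, 92.1% in the sorted library, and 86% and 88.6% in air and hyperoxia at pnd60. For Il18 the shares in the same order were 72.6%, 82%, 97.7%, 86.5% and 83%. For Il1a they were 83.6%, 88.3%, 87.2%, 57.9% and 69.9%. The class held 83.6% of all counts in the sorted library, near its share of Il1a there, and between 6.61% and 9.83% in the unsorted libraries. The lower shares of Il1a at pnd60 went with a further source, the aerocyte-like endothelial cells, capillary cells of the gas exchange surface. These held 18 of 76 Il1a counts in air and 16 of 93 in hyperoxia at pnd60, at 47.7 and 46.3 CPM, spread over 15 of 118 and 14 of 130 cells. At pnd7 no Il1a count was found in aerocyte-like cells, of which there were 20 in air and 25 in hyperoxia.

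In alveolar macrophage-like cells at pnd60, Il18 was found in 93.4% of 182 cells in air and 93.2% of 192 cells in hyperoxia. In T cell-like cells of the same libraries the shares were 0.178% and 0.633%, at a median of 2344 and 2527.5 counts per cell against 7573 and 8218.5 counts in the macrophages. The level of Il18 per macrophage count was nearly the same in the 4 unsorted libraries, at 457, 447, 445 and 436 CPM in air and hyperoxia at pnd7 and in air and hyperoxia at pnd60. Il1rn was at 350 and 420 CPM at pnd7 and at 237 and 300 CPM at pnd60 in these cells. It was higher in hyperoxia than in air at both ages, by 0.26 (0.06 to 0.47) on the log2 scale at pnd7 and by 0.34 (0.13 to 0.54) at pnd60. These differences were small beside the 2-fold limit, and 1 library stood on each side. By the marker list with the largest share in each cell, 78 of 112 such cells in air and 54 of 64 in hyperoxia at pnd7 were alveolar macrophages. At pnd60 the numbers were 177 of 182 and 190 of 192. The part of this in the Il1rn ratios was not tested.

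Il1b had several sources. Neutrophil-like cells held 32.6% of its counts in air and 43.8% in hyperoxia at pnd7, and 50.1% and 61.3% at pnd60, although they were only 16, 14, 31 and 60 cells. Nonclassical monocyte-like cells, the patrolling monocytes of vessels, held 21.7%, 34.5%, 20.2% and 14.9%. Alveolar macrophage-like cells held 28.1% in air and 7.38% in hyperoxia at pnd7, 3.44% and 2.56% at pnd60, and 94.2% in the sorted library. Classical monocyte-like cells followed at pnd60 with 12.5% in air and 10.5% in hyperoxia. In neutrophil-like cells Il1b reached 1850 and 2820 CPM at pnd7 and 7490 and 10100 CPM at pnd60, the highest level of any of the 9 genes in any class of at least 10 cells. Il1b was found in 27 of 31 and 58 of 60 neutrophil-like cells at pnd60, against 2 of 562 and 4 of 632 T cell-like cells, at a median of 1748 and 1663 counts per neutrophil against 2344 and 2527.5 per T cell. Il1r2 shared this source: neutrophil-like cells held 76.9% of its 13 counts in air and 66.7% of its 21 counts in hyperoxia at pnd7, and 47.6% of 42 and 68.4% of 95 counts at pnd60. The ligand and the decoy receptor were thus measured in the same class. Dendritic cell-like cells held a further 33.3% and 16.8% of the Il1r2 counts in air and hyperoxia at pnd60. No neutrophil-like cell remained in the sorted library after the filter.

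Il33 was a gene of type II-like cells, the alveolar epithelial cells that make surfactant. They held 77.1% and 79.4% of its counts in air and hyperoxia at pnd7 and 92.8% and 93.5% at pnd60. At pnd7 type I-like cells, named for the thin epithelial cells of the alveolar wall, added 10.4% in air and 3.55% in hyperoxia, and unnamed cells 2.31% and 9.73%. By the marker list with the largest share in each cell, only 19 of the 217 type I-like cells in air and 32 of the 43 in hyperoxia were type I cells. The IL-33 receptor gene Il1rl1 was spread over small groups of cells. In air and hyperoxia at pnd7, 10 and 7 mast cell or basophil-like cells held 48 of 111 and 29 of 113 Il1rl1 counts. An unnamed cluster of 48 cells led by Mcpt4, Tpsb2, Il1rl1, Cpa3, Cma1, Arg1 and Gata3, which has genes of mast cells and of group 2 innate lymphoid cells, held a further 36 and 44 counts from 3 and 6 cells at pnd7, and 57 and 54 counts from 19 and 20 cells at pnd60. By the marker list with the largest share in each cell, 26 of its cells were called group 2 innate lymphoid cells and 1 a mast cell. At pnd60 dendritic cell-like cells held the largest share of Il1rl1, 44.9% in air and 44.3% in hyperoxia, at 122 and 92.3 CPM. Most of these counts lay in 1 cluster led by Cd209a, in which Il1rl1 itself was among the 10 leading genes.

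In the unsorted libraries the largest share of Il6 lay in mast cell or basophil-like cells, a class with 0 cells in the sorted library. They held 32 of 83 counts in air and 35 of 50 in hyperoxia at pnd7, and 32 of 50 and 36 of 50 at pnd60, from 10, 7, 11 and 11 cells. Their level was 357 and 631 CPM at pnd7 and 1120 and 1430 CPM at pnd60. Single cells weighed heavily, since 1 cell held 23 of the 36 counts in hyperoxia at pnd60, and without it the level was 587 CPM. In air at pnd7, 27 of 83 Il6 counts lay in 20 erythroid or platelet-like cells, a class that held 10.1% of all counts of the library. Over the 674 cells of this class Il1b was found as 26 single counts in 26 cells and Il1rn as 29 single counts in 29 cells. The part of free RNA in these counts was not tested.

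Il1r1 was the most widely spread of the 9 genes, and no class held over 30% of its counts in an unsorted library. Type II-like cells held 25.2% and 29.1% in air and hyperoxia at pnd7, and 26.8% and 22% at pnd60. Alveolar fibroblast-like cells held 10.2%, 9.7%, 25% and 20.1% in the same order. Per count, adventitial fibroblast-like cells were higher, at 136 CPM in 14 cells in air at pnd7 and at 77.7 and 137 CPM in 41 cells each in air and hyperoxia at pnd60. In alveolar macrophage-like cells of the sorted library Il1r1 had 6 counts in 410 cells.

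**Figure D2:**
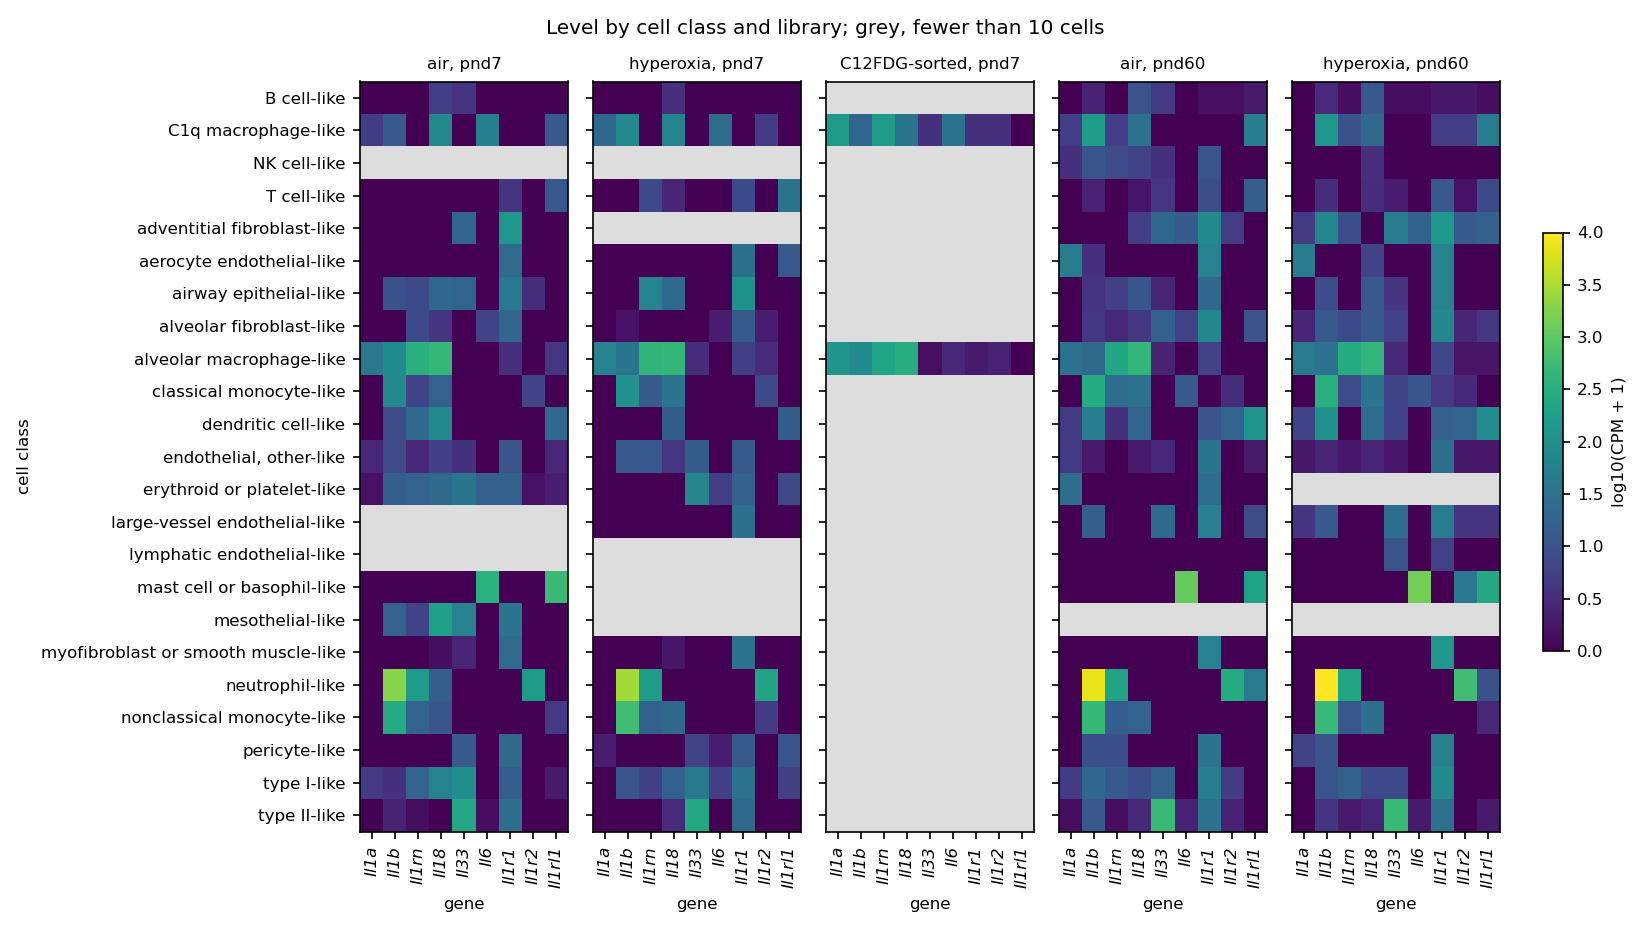
Level of each gene by cell class in the 5 libraries, as log10(CPM + 1), with classes of fewer than 10 cells in grey. Il1b and Il1r2 stand out in neutrophil-like cells, Il1rn and Il18 in alveolar macrophage-like cells, Il33 in type II-like cells and Il6 in mast cell or basophil-like cells, while Il1r1 is spread over many classes.

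Genes that followed the members over classes and libraries were sought as the 3 with the highest Pearson r of log2(CPM + 10), over 69 class-by-library sums of at least 20 cells and 14375 genes. The sums share libraries and depth, so r is a description. Closest to Il1a were Gpnmb (r = 0.84), Gdf15 (0.77) and Lrp12 (0.75). For Il1rn they were Hcar2 (0.94), Cd300lf (0.87) and Fpr1 (0.87), and for Il18 AU022793 (0.91), Tfec (0.91) and F7 (0.88). Il1b went with Cd300lb (0.94), F630028O10Rik (0.92) and Csf3r (0.92), the last being the receptor of the granulocyte growth factor G-CSF. Il1r2 went with Asprv1 (0.94), the IL-36γ gene Il1f9 (0.93) and Retnlg (0.92). The nearest genes to Il33 were Akr1c19 (0.93), Mlc1 (0.92) and Acoxl (0.91), and those nearest to Il1r1 were Enpp5 (0.87), Myo1d (0.85) and Lmbr1 (0.85). Il1rl1 and Il6 had weaker matches, Siglech (0.74), Fndc7 (0.74) and Bco2 (0.72) for Il1rl1 and Prtn3 (0.78), Serpinb2 (0.76) and Prg4 (0.74) for Il6. Mast cell or basophil-like cells, at 10, 7, 11 and 11 cells in the unsorted libraries, were too few to enter these sums. Among the classes that did enter, Il6 was highest in C1q macrophage-like cells, at 51.8 CPM in air at pnd7 and 33.4 CPM in the sorted library. There 1 cell held 12 of the 13 counts of that class in air at pnd7, and 1 held 17 of 26 in the sorted library. More counts, 27, lay in erythroid or platelet-like cells in air at pnd7, at 16 CPM and spread over 20 cells.

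The C12FDG-sorted cells were compared with the unsorted cells of hyperoxia-exposed mice at pnd7, which asks what the sort enriched. Of the 9 genes, 4 were at least 2-fold higher (Il1a, Il1b, Il1rn and Il18) and 3 at least 2-fold lower (Il1r1, Il33 and Il1rl1). Among 12799 genes with 50 counts, 8.04% were at least 2-fold higher and 40.1% at least 2-fold lower. Il1a was 26.6-fold higher, with a log2 ratio of 4.73 (4.36 to 5.14). Il18 was higher by 2.86 (2.72 to 3) on the log2 scale and Il1rn by 2.67 (2.52 to 2.83). Il33 fell by 4.3 and Il1r1 by 3.3 on the log2 scale, and Il1rl1 was at least 21.9-fold lower, taking 3 counts for the 0 found. Alveolar macrophage-like cells made up 5.14% of the unsorted and 83.2% of the sorted cells, and type II-like cells 145 of 1246 and 7 of 493. The part of this change of classes in the library ratios was not tested. Il6 and Il1r2 lay within 2-fold, at log2 ratios of 0.43 (−0.22 to 1.06) and −0.15 (−1.35 to 0.97).

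The library value of Il1b rested on few cells. Its log2 ratio of 1.26 (1.08 to 1.44) became 0.52 (0.3 to 0.74), within 2-fold, without the cell with the most counts in each library. When every cell was given the same weight it was −0.3, and with cells thinned to 1000 counts it was −0.22 (−0.81 to 0.34), so that the direction turned. Against air at pnd7 the same 7 genes were called, in the same directions, where 7.7% of 13239 genes were higher and 41.7% lower. Both comparisons use the sorted library. In that comparison Il1a was higher by 5.15 (4.76 to 5.57), Il1rn by 2.7 (2.56 to 2.85), Il18 by 2.53 (2.41 to 2.65) and Il1b by 1.72 (1.53 to 1.91) on the log2 scale.

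**Figure D3:**
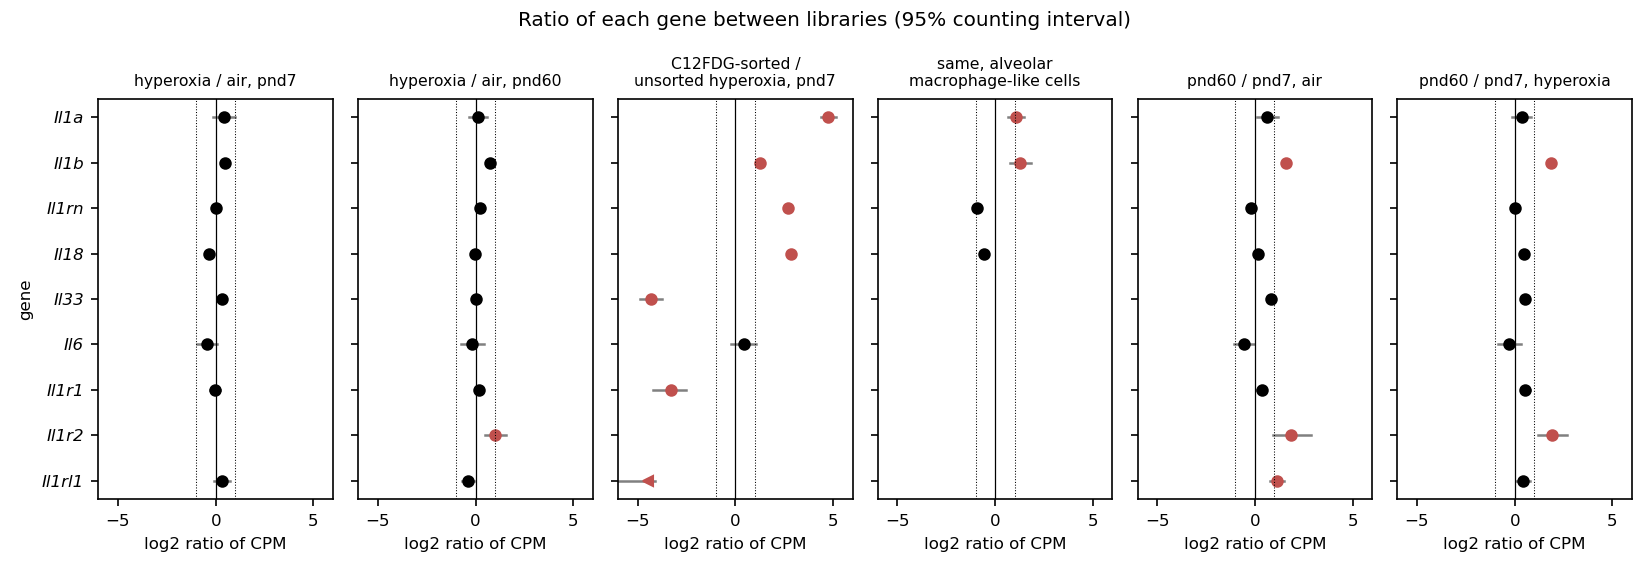
Log2 ratio of CPM for each gene with at least 50 counts in the pair, with 95% counting intervals. Dotted lines mark 2-fold, red points are past it, and the triangle for Il1rl1 is an upper bound from a library with 0 counts. Between sorted and unsorted hyperoxia libraries 7 genes pass 2-fold, between hyperoxia and air 0 at pnd7 and 1 at pnd60.

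Within alveolar macrophage-like cells the picture changed, with Il1a and Il1b higher in the sorted library and Il1rn and Il18 lower. This comparison set 410 sorted cells against 64 unsorted cells of hyperoxia-exposed mice at pnd7, and 4 of the 9 genes had 50 counts. The 2 genes past 2-fold were both higher, Il1a and Il1b, where 4.79% of 8208 genes were at least 2-fold higher and 17.1% at least 2-fold lower. Il1a was at 123 CPM in sorted and 59.1 CPM in unsorted cells, a log2 ratio of 1.05 (0.65 to 1.48). Il1b was at 83.5 and 34.5 CPM, a log2 ratio of 1.27 (0.75 to 1.84). By contrast Il1rn was at 222 CPM in sorted and 420 CPM in unsorted cells, a log2 ratio of −0.92 (−1.09 to −0.75). Il18 was at 305 and 447 CPM, a log2 ratio of −0.55 (−0.7 to −0.39). The median over all genes tested was −0.33 on this scale. Il1rn and Il18 were thus higher in the whole sorted library and lower per count of its alveolar macrophage-like cells.

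A single sorted cell carried much of the Il1a and Il1b signal. This cell, alveolar macrophage-like and not called a doublet, held 202 Il1a, 267 Il1b and 59 Il1rn counts among 29288 counts. It made up 25% of the Il1a and 48.5% of the Il1b counts of its class. Without the cell richest in the gene in each library, sorted and unsorted levels were 92.4 and 53.5 CPM for Il1a and 43.1 and 27.2 CPM for Il1b. Neither gene then passed 2-fold, and the count of genes past 2-fold fell from 2 to 0. Air at pnd7 also had such a cell, with 53 of the 105 Il1b counts of its alveolar macrophage-like cells. The sorted cells also lay in other clusters than the unsorted ones. The libraries were clustered together without integration, and the part of differences between libraries in this separation was not tested. Of the 410 cells 371 fell in a cluster led by the stress response genes Hmox1, Slc7a11, Mt1 and Mt2 with Mmp12 and Gdf15, which held 2 of the 64 unsorted cells, and 39 were in a cluster led by cell cycle genes, which held 9. The remaining unsorted cells, apart from 1, were 52 cells of another cluster, in which Il1a was at 66.6 CPM. It was at 138 CPM in the sorted cells of the stress gene cluster, where the cell described above held 202 of 763 counts. In the cycling cluster Il1a was at 42.7 CPM in sorted and 25.4 CPM in unsorted cells, the second from 5 counts.

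The share of alveolar macrophage-like cells with a count was compared at 3000 counts per cell, leaving out 30 of 410 sorted and 12 of 64 unsorted cells. Il1a was then found in 19.2% (15.4 to 23.5) of sorted and 13.5% (5.59 to 25.8) of unsorted hyperoxia cells, against 44.4% and 40.6% without thinning. In air at pnd7 the thinned share was 8.43% (3.46 to 16.6), and at pnd60 it was 8.62% in air and 8.38% in hyperoxia. Il1b was found in 7.37% (4.95 to 10.5) of sorted and 9.62% (3.2 to 21) of unsorted hyperoxia cells. Il1rn was found in 42.9% (37.9 to 48) and 63.5% (49 to 76.4), and Il18 in 55% (49.8 to 60.1) and 71.2% (56.9 to 82.9), of sorted and unsorted hyperoxia cells. For Il1rn the intervals did not overlap, while for Il1a, Il1b and Il18 they did.

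**Figure D4:**
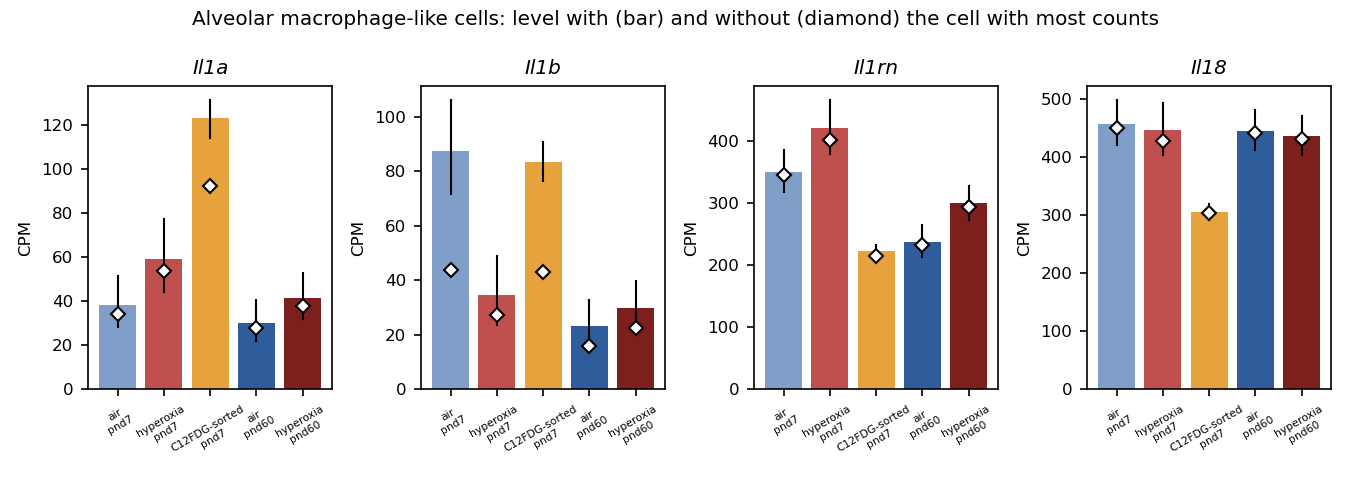
CPM of Il1a, Il1b, Il1rn and Il18 in alveolar macrophage-like cells of each library, with 95% counting intervals. Diamonds give the level without the cell with the most counts of the gene. In the sorted cells Il1b drops from 83.5 to 43.1 CPM and Il1a from 123 to 92.4 CPM, while Il1rn and Il18 barely move.

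The antagonist was then set against the agonists within the same cells, as the share of Il1rn among the counts of Il1rn, Il1a and Il1b together. In alveolar macrophage-like cells this share was 73.6% (69.7 to 77.1) in air and 81.8% (77.9 to 85.2) in hyperoxia at pnd7, and 81.5% (77.5 to 85.1) and 80.8% (77.4 to 83.9) at pnd60. In the sorted cells it was 51.8% (50 to 53.7), below the intervals of all 4 unsorted libraries. There were 4.49 Il1rn counts for each agonist count in unsorted hyperoxia macrophages at pnd7 and 1.08 in sorted ones. The sorted cell described above held 469 of the 1358 agonist counts. Without the cell with the most agonist counts in each library, an alternative chosen after seeing the data, the share was 61.2% (59.2 to 63.2) in the sorted cells, 81.3% (77.6 to 84.6) in air and 82.2% (78.3 to 85.7) in hyperoxia at pnd7, and the ratio in the sorted cells was 1.58. In neutrophil-like cells, where Il1b prevailed, Il1rn had 5.15% of the counts of the 3 genes in hyperoxia at pnd7 and 2.18% in hyperoxia at pnd60.

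C1q macrophage-like cells, which carry markers of interstitial macrophages, held Il1a and Il1rn mainly in the sorted library. Il1a was at 152 CPM in 50 sorted cells and at 20.9 CPM in 19 unsorted hyperoxia cells, with 118 and 5 counts and a log2 ratio of 2.86 (1.6 to 4.51). Il1rn had 116 counts in the sorted cells, 149 CPM, and 0 in the 19 unsorted cells, which makes it at least 11.9-fold higher. Il1b went the other way, at 19.3 and 75.2 CPM. These 118 Il1a counts came from 11 cells, of which 1 held 34 and another, called a doublet, held 33. All but 1 of the 51 cells of their cluster, led by Cxcl2, Ms4a7 and C1qb, came from the sorted library, whereas the unsorted cells lay in a cluster led by C1qa, C1qb and C1qc. The part of differences between libraries in this separation was not tested either. Of the 39 Il6 counts of the sorted library 26 lay in this class, 17 of them in the same doublet.

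The promoters of Il1a and Il1rn, which differed in opposite directions in the sorted macrophages, and of Il6 are shown to let their sequence be compared, as RefSeq gives them for GRCm38.p6, each from 250 bases before to 50 after a transcript start. Capitals mark matches to 3 motifs searched on both strands: NF-kB as GGG, NN and TTTCC in a row or the reverse complement, AP-1 as TGANTCA, and C/EBP as TTGCNNAA or TTNNGCAA. The Il1a window, chr2:129309923-129310222 on the minus strand, holds 1 AP-1 match. The second of 3 Il1rn windows, chr2:24345041-24345340 on the plus strand, holds 1 NF-kB match, which lies in the overlapping last window as well. The first Il1rn window, chr2:24336610-24336909, holds 1 AP-1 match, as that of Il1a does. Il6, chr5:30012864-30013163 on the plus strand, holds 1 match of each motif.
Il1a: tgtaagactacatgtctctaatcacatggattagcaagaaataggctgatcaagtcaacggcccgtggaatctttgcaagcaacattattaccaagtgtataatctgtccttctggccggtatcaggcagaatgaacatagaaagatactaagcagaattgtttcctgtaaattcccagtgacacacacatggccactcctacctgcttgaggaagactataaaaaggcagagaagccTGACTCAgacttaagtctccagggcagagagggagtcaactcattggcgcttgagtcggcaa
Il1rn: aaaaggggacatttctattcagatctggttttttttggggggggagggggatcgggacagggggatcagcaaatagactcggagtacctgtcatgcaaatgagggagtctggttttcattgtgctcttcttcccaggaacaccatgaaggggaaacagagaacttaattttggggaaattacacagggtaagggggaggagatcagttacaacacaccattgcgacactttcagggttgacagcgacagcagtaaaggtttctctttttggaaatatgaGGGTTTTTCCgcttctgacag
Il6: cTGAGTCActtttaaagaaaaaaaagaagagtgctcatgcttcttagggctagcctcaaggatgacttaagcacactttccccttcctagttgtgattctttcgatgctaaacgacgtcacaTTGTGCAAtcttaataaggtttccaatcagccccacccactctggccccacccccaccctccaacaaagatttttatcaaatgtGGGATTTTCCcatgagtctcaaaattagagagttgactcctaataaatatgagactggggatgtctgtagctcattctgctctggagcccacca
The windows of Il1b, Il18 and Il1r2 hold none of these letters. Of 32851 promoter windows of this length, 1.63% hold the NF-kB, 7.81% the AP-1 and 10.8% the C/EBP letters. A match is a run of letters and not a measured binding site, and the 3′ reads do not show which of the Il1rn starts was used.

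Unsorted hyperoxia and air cells at pnd7 were compared to ask how the genes differed after the return to room air. None of the 8 genes with 50 counts was at least 2-fold different by its library level. Over all 13925 genes, 0.445% were at least 2-fold higher and 1.25% at least 2-fold lower. Il1b was higher by 0.46 (0.26 to 0.67) and Il33 by 0.34 (0.21 to 0.47) on the log2 scale, and Il18 was lower, at −0.33 (−0.5 to −0.17). Il1a (0.42, −0.13 to 0.97), Il1rl1 (0.32, −0.07 to 0.71), Il6 (−0.44, −0.97 to 0.09), Il1rn (0.03, −0.16 to 0.22) and Il1r1 (−0.02, −0.27 to 0.24) had intervals that held 0. When every cell had the same weight, or with cells thinned to 1000 counts, 2 genes passed 2-fold, Il1b and Il1rl1, both higher in hyperoxia. The share of all genes past 2-fold was not counted under these settings, and the minimum of 50 counts was applied before thinning. Erythroid or platelet-like cells were 674 of the air cells and 121 of the hyperoxia cells, of which 623 and 34 were so called by their own markers.

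Within classes, differences at pnd7 were seen in several cell types. Il1b in nonclassical monocyte-like cells was at 290 CPM in 56 air cells and 594 CPM in 46 hyperoxia cells, a log2 ratio of 1.03 (0.63 to 1.45), found in 25 and 35 cells. Neutrophil-like cells showed 1850 and 2820 CPM of Il1b, a log2 ratio of 0.61 (0.27 to 0.95). In alveolar macrophage-like cells Il1b went the other way, at 87.6 and 34.5 CPM, but without the richest cell of each library the levels were 43.8 and 27.2 CPM. Il33 in type II-like cells was at 262 CPM in air and 265 CPM in hyperoxia, a log2 ratio of 0.02 (−0.13 to 0.16). Il1r1 in airway epithelial-like cells was at 39.7 CPM in air and 114 CPM in hyperoxia, from 17 and 15 counts, a log2 ratio of 1.52 (0.42 to 2.61). By the marker list with the largest share in each cell, 38 of 115 such cells in air and 17 of 20 in hyperoxia were airway epithelial. In type I-like cells, 217 in air and 43 in hyperoxia, Il33 was at 90.4 and 41.1 CPM and Il18 at 60.3 and 16.4 CPM. Type I-like cells of the air library were shallower, at a median of 2115 counts against 12833 in hyperoxia. By the same marker call, 19 of the 217 cells in air and 32 of the 43 in hyperoxia were type I cells. These 2 classes thus differed in content between the libraries, and they were not the only ones. By the same call, 78 of 112 alveolar macrophage-like cells in air and 54 of 64 in hyperoxia were alveolar macrophages. For erythroid or platelet-like cells the call matched in 623 of 674 and 34 of 121. The part of these differences in the ratios was not tested.

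At pnd60, 1 of the 9 genes was at least 2-fold different between hyperoxia and air, Il1r2, where 0.45% of 14214 genes were at least 2-fold higher and 0.303% at least 2-fold lower. Il1r2 was at 5.75 CPM in hyperoxia and 2.85 CPM in air, a log2 ratio of 1.01 (0.47 to 1.57). Il1b was higher by 0.73 (0.62 to 0.84) on the log2 scale and Il1rn by 0.25 (0.06 to 0.44). Il1rl1 was lower, at −0.39 (−0.68 to −0.1), and the intervals of the other 5 genes held 0. Neutrophil-like cells, which held the largest share of Il1b and of Il1r2, were 60 of 4756 hyperoxia cells and 31 of 4397 air cells. In these cells Il1b was at 10100 CPM in hyperoxia and 7490 CPM in air, and Il1r2 at 583 and 303 CPM.

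The filter on genes per cell decided how many neutrophils were counted. Of the barcodes it removed at pnd60, 67 in air and 73 in hyperoxia were led by neutrophil markers, at a median of 600 and 592 genes. They held 976 of the 982 removed Il1b counts in air and 942 of 964 in hyperoxia, so that nearly as many Il1b counts lay outside the filter in air as the 987 inside it. With a limit of 200 genes in place of 700, barcodes led by neutrophil markers were 2.02% (1.64 to 2.45) in air and 2.41% (2.02 to 2.85) in hyperoxia. Their Il1b level was then 10600 and 11200 CPM, and their Il1r2 level 625 and 692 CPM. The log2 ratio of the whole library came to 0.33 (0.24 to 0.41) for Il1b. For Il1r2 it came to 0.36, from 158 counts in hyperoxia and 109 in air, with the upper end of its interval at 0.73. No gene was then 2-fold different. At pnd7 no removed barcode of an unsorted library was led by neutrophil markers.

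**Figure D5:**
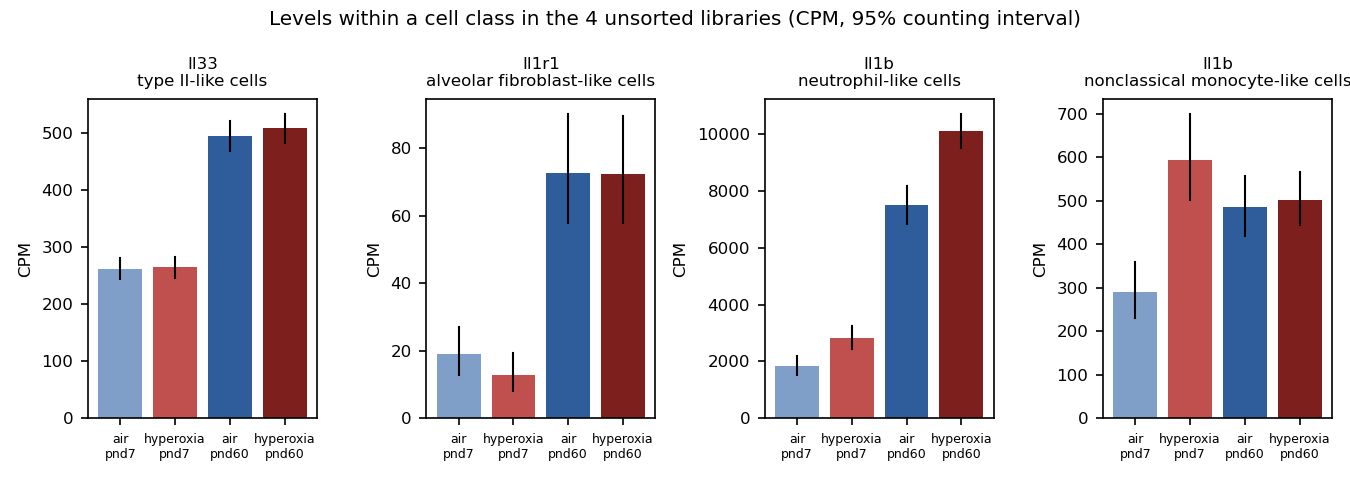
CPM within a cell class in the 4 unsorted libraries, with 95% counting intervals. Il33 in type II-like cells, Il1r1 in alveolar fibroblast-like cells and Il1b in neutrophil-like cells are higher at pnd60 than at pnd7 in both air and hyperoxia. Il1b in nonclassical monocyte-like cells is lowest in air at pnd7, at 290 CPM.

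The libraries at pnd60 and pnd7 were set against each other to follow the genes with age. In air 3 of the 9 genes, Il1b, Il1r2 and Il1rl1, were at least 2-fold higher at pnd60 and 0 lower, where 16.1% of 14284 genes were higher and 10.3% lower. In hyperoxia Il1b and Il1r2 were at least 2-fold higher and 0 lower, where 20.3% of 14234 genes were higher and 10.2% lower. Il1b had log2 ratios of 1.58 (1.4 to 1.75) in air and 1.84 (1.69 to 2) in hyperoxia. Il1r2 had 1.87 (0.94 to 2.89) and 1.89 (1.2 to 2.65), from 13 and 21 counts at pnd7. For Il1rl1 the ratio was 1.12 (0.78 to 1.47) in air and 0.41 (0.07 to 0.76) in hyperoxia. Il33 was higher by 0.82 (0.7 to 0.94) in air and 0.5 (0.39 to 0.61) in hyperoxia. The classes differed with age as well. From pnd7 to pnd60, B cell-like cells went from 5.33% to 28.2% of cells in air and from 5.62% to 26.6% in hyperoxia. Dendritic cell-like cells went from 0.477% to 2.89% and from 0.883% to 3.01%. Erythroid or platelet-like cells went from 29.2% to 0.227% and from 9.71% to 0.147%. The part of this in the library ratios was not tested.

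Within cell classes, some genes were higher at pnd60 and others lower. Il33 in type II-like cells went from 262 to 495 CPM in air and from 265 to 509 CPM in hyperoxia, log2 ratios of 0.92 (0.79 to 1.05) and 0.94 (0.82 to 1.07). In type I-like cells it was lower at pnd60, with 4 counts in 39 air cells and 2 in 53 hyperoxia cells. By the marker list with the largest share in each cell, 36 and 51 of these cells were type I cells. At pnd7 only 19 of 217 in air and 32 of 43 in hyperoxia were. Type II-like cells thus held a larger share of Il33 at pnd60 than at pnd7. Il1r1 in alveolar fibroblast-like cells went from 19 to 72.7 CPM in air, a log2 ratio of 1.94 (1.32 to 2.59), and from 12.9 to 72.3 CPM in hyperoxia, 2.49 (1.81 to 3.22). At pnd60 the levels of air and hyperoxia differed by −0.01 (−0.46 to 0.45) on the log2 scale. Il1b in neutrophil-like cells was higher by 2.02 in air and 1.84 in hyperoxia, and in classical monocyte-like cells by 1.98 and 1.69. In nonclassical monocyte-like cells it was higher in air, at 290 and 485 CPM, and at 594 and 502 CPM in hyperoxia, a log2 ratio of −0.24 (−0.54 to 0.06). Il1b in alveolar macrophage-like cells was lower at pnd60 in air, at 87.6 and 23.4 CPM (43.8 and 16 CPM without the richest cell of each library). In hyperoxia it was at 34.5 and 29.9 CPM, a log2 ratio of −0.21 with an interval of −0.89 to 0.49. Il1rl1, higher with age in the air library, was lower in mast cell or basophil-like cells, at 535 CPM at pnd7 and 210 CPM at pnd60, the second from 6 counts. Il6 in mast cell or basophil-like cells went from 357 to 1120 CPM in air, a log2 ratio of 1.65 (0.9 to 2.41), although its library level was within 2-fold. Cells at pnd60 were shallower, at a median of 2168 and 2315.5 counts against 3915 and 7119.5 at pnd7, and the part of depth in these differences was not tested.

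Other genes of the pathway, 52 genes in 6 lists, were counted in the same comparisons. Between hyperoxia and air at pnd7 0 of 43 with 50 counts passed 2-fold, and at pnd60 1 of 46 did, the ligand gene Il1f9, higher by 1.24 (0.47 to 2.06). In the sorted against the unsorted hyperoxia library 13 of 45 were higher and 5 lower, with a median log2 ratio of 0.42 against −0.64 over all genes, of which 8.04% were higher and 40.1% lower. Of 10 inflammasome and processing genes 6 were higher and 0 lower, among them Nlrp3, the inflammasome sensor, at 150 and 11.1 CPM and a log2 ratio of 3.75 (3.51 to 4.01). Lif, of the IL-6 family, was higher by 3.17 (2.41 to 4.02) and Il1f9 by 3.15 (2.25 to 4.18). Of 8 receptor partners and decoys 1 was higher and 4 were lower, led by the IL-18 receptor genes Il18r1, which fell by 3.47, and Il18rap, which fell by 3.02, and by the inhibitory receptor gene Sigirr, which fell by 2.97 on the log2 scale. Against air at pnd7, 13 of 45 were higher and 5 lower, again with Nlrp3 (3.65), Lif (3.65) and Il1f9 (3.03) highest and Il18rap (−3.51), Il18r1 (−3.5) and Sigirr (−2.91) lowest.

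Within alveolar macrophage-like cells 3 of 40 such genes were higher in the sorted library, Lif, Il1f9 and the NF-κB inhibitor gene Nfkbia, and 7 were lower. Beside the 4.79% higher and 17.1% lower over all genes, the share of lower genes, 7 of 40, was near the background. Nfkbia was at 326 and 146 CPM, a log2 ratio of 1.16 (0.91 to 1.43). Lif and Il1f9 had 87 and 62 counts in sorted cells and 1 count each in unsorted cells, with log2 ratios of 3.57 (1.05 to 8.89) and 3.08 (0.55 to 8.4). The lowest were Il1rl2, the receptor of IL-36 ligands, which fell by 1.99, the protease gene Capn1, which fell by 1.64, and the pore-forming Gsdmd, which fell by 1.37 on the log2 scale. Of the inflammasome and processing list 0 were higher and 3 lower in these cells. With age 23 of 44 pathway genes were higher in air and 28 of 46 in hyperoxia, and 0 lower in both, beside 16.1% and 20.3% of all genes higher and 10.3% and 10.2% lower. These are whole-library levels, and the part of the change of classes with age in them was not tested. In air Il18rap (2.38), the NF-κB target Tnfaip3 (2.07) and Lif (1.97) were highest, and in hyperoxia Il18rap (2.87), Il27 (2.42) and the prostaglandin synthase gene Ptgs2 (2.24).

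Genes of handling, immediate early and heat shock genes known to respond to tissue dissociation, were summed as a check on the cytokines. Their 11 genes, 1 or 2 of which had no count in a library, were at 3820 and 4280 CPM in air and hyperoxia at pnd7, 2530 CPM after sorting and 6420 and 6770 CPM at pnd60. In alveolar macrophage-like cells they were at 1590 CPM in the sorted and 3200 CPM in the unsorted hyperoxia library at pnd7. They were therefore lowest in the sorted library and highest at pnd60, and their part in the age differences was not tested. The antisense gene Il1bos, which overlaps Il1b, had 6 counts at most in any library.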

How the data were processed

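Lung cells of the 5 conditions were measured by 10x 3′ single-cell RNA sequencing, 1 library each. The authors deposited raw UMI counts for each gene in each barcode, made with Cell Ranger (3.1.0 in the file header) on mm10; Seurat 3.2.1 stands in the submitters' processing notes. Barcodes with over 700 and under 8000 genes and under 5% mitochondrial counts were kept. The libraries were merged without integration. Cells were clustered with scanpy 1.11.5 and Leiden (resolution 2, 3000 variable genes, 50 components) and named from marker lists. Thresholds for naming and the splitting of mixed clusters were set after seeing the data. Barcodes called by Scrublet, between 0 and 157 a library, were kept, and leaving them out was an alternative. Counts were summed per library or class and given as CPM. With 1 library a condition no test was made. A gene was called at 2-fold with 50 counts in the pair, and intervals are exact Poisson, binomial or Clopper-Pearson intervals at 95%. For a library at 0, a ratio was bounded at 3 counts. Pathway genes named were the 3 most different in each direction past 2-fold in a comparison. Ratio code was tested on simulated data. The 9 genes, the lists and the comparisons were chosen with earlier results of these data known. The strand setting of the counting is not given in the sources used here.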

Additional observations from a re-analysis of the deposited data

Results flagged for a closer look

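Il1rl1 in T cell-like cells pointed in opposite directions at the 2 ages. The log2 ratio of hyperoxia to air was 1.56 at pnd7 and -1.13 at pnd60, and the difference between the ages was not tested. At pnd7, 18 of the 20 counts in hyperoxia and 8 of the 11 counts in air lay in 1 cell each, and without these cells the levels were 3.48 and 3.19 CPM. At pnd60 there were 12 counts in hyperoxia and 23 in air.

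Among the barcodes that the filter removed, 3 values were higher in hyperoxia than in air, with intervals above 0, and 3 were lower. Il1b had 19 counts in hyperoxia and 8 in air at pnd7, a log2 ratio of 1.3 (0.05 to 2.71). Il6 had 16 and 2 counts at pnd7, a log2 ratio of 3.06 (0.97 to 6.22). Il1r1 had 48 and 16 counts at pnd60, a log2 ratio of 0.97 (0.12 to 1.88). Lower were Il18 at pnd7, at -1.23 (-2.11 to -0.41), Il1b at pnd60, at -0.65 (-0.78 to -0.52), and Il1r2 at pnd60, at -0.69 (-1.2 to -0.17). Il1b in removed barcodes thus pointed in opposite directions at the 2 ages, and that difference was not tested.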

How the results depend on the processing

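No paired analysis was possible because there was 1 library for a condition. Of the alternatives, median-of-ratios scaling, totals without hemoglobin genes, other minimum counts, leaving out doublets, other clusterings, and leaving out erythroid or platelet-like and unnamed cells kept every count of members past 2-fold within 1.5 times. For hyperoxia against air at pnd7 the count went from 0 to 2 with the mean of the cells' own CPM and to 2 with cells thinned to 1000 counts. At pnd60 it went from 1 to 0 with all barcodes, to 0 with barcodes of over 200 genes, and to 2 with thinning (Il1r2 higher, Il6 lower). For pnd60 against pnd7 it went from 3 to 5 in air and from 2 to 7 in hyperoxia with all barcodes, and to 1 in hyperoxia with the mean of the cells' own CPM. In alveolar macrophage-like cells it went from 2 to 0 without the cell with the most counts of the gene, an alternative chosen after seeing the data. Il1b in sorted against unsorted hyperoxia cells turned to -0.3 with the mean of the cells' own CPM and to -0.22 with thinning. Il1rl1 in sorted cells against air, bounded from 0 counts, came to 0.22 with thinning, which leaves few counts above the bound. The cause of these changes was not tested. Of the single values, 33 of 54 left their counting interval with all barcodes, 33 of 57 with thinning, 25 of 61 with the mean of the cells' own CPM and 11 of 61 with median-of-ratios scaling. Depth limits the scarce genes, with 95 counts or fewer of Il1r2, 83 or fewer of Il6 and, in the unsorted libraries, 93 or fewer of Il1a. The share of Il1rn among the 3 IL-1 transcripts in sorted macrophages went from 51.8% to 61.2% without the cell richest in agonist counts, also chosen after seeing the data.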

Other observations

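Alveolar macrophage-like cells with Il1a alone outnumbered those with Il1b alone in every library. In the sorted library 141 cells had Il1a alone, 26 had Il1b alone, 41 had both and 202 had neither. In unsorted hyperoxia cells at pnd7 the numbers were 18, 8, 8 and 30, and in air at pnd7 they were 22, 7, 6 and 77. The 10 cells richest in Il1b held 75.6% of the sorted Il1b counts and 97.1% of those in air at pnd7, whereas the 10 richest in Il1a held 50% and 60.9%.

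Mesothelial-like cells, the lining of the lung surface, were a further source of Il18. Il18 was found in 12 of 13 such cells in air at pnd7, at 195 CPM, and in 4 of 6 in hyperoxia at pnd7, at 111 CPM.

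Over all cells of a library, Il1a made up 61.4% of the Il1a and Il1b counts together in the sorted library, 12.8% in air and 12.5% in hyperoxia at pnd7, and 7.15% and 4.83% at pnd60.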
